A study of Homo sapiens with 28 samples.

Results

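Genes that mark or build bone were followed in U2OS, a human osteosarcoma cell line, through an RNA-seq experiment and a pooled CRISPR knockout screen. They are RUNX2, SP7, DLX5, MSX2 and TWIST1, which encode transcription factors of the bone lineage, COL1A1 and COL1A2, which encode the chains of type I collagen, SPARC and SPP1, which encode proteins of bone matrix, and ALPL, which encodes an alkaline phosphatase. They were taken by name as 10 of the 25807 gene symbols listed in the RNA counts and, in the screen, as the 60 guide RNAs against them among 109367 guides.

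The RNA came from p53 wild-type U2OS cells in all 10 libraries. In 8 of them the cells had spent 8 h in medium conditioned by other U2OS cells (donors), which were p53 knockout (KO) or p53 wild-type (WT) and had been given 31.6 µM etoposide, a topoisomerase II poison that breaks DNA, or the solvent DMSO. The groups are called KO etoposide medium, WT etoposide medium, KO DMSO medium and WT DMSO medium, with 2 libraries each, lettered A and B, and 2 libraries of cells at 0 h, before any conditioned medium (T0). The labels also describe the donors of the DMSO media as untreated. In the screen, KO and WT U2OS cells carrying a guide library were sampled after 96 h in 5 µM etoposide, after 96 h in DMSO and at 0 h (T0), with 3 libraries in each of 6 groups. The titles of the screen libraries called DMSO here say untreated, and their treatment protocol says DMSO. The recipients therefore show what a medium did to p53 wild-type cells and not what loss of p53 did in the cell itself. The p53 transcript of the donors was not measured. Etoposide in the conditioned media was not measured either, so any drug left there cannot be told apart from what the donors released. The labels do not say whether the KO line is 1 clone or whether the libraries of 1 group are from cultures grown apart, so p-values measure only the spread between these libraries. As the RNA is from bulk culture, fewer cells expressing a gene and less RNA per cell cannot be told apart.

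RNA libraries held 16825669 to 20290764 counts and screen libraries 30437296 to 48230735. Libraries A and B of KO DMSO medium stood further apart than any other RNA pair, with a chi-square per degree of freedom over genes of 12.8 against 1.90 to 5.09 in the other 4 groups. Results that use this group are therefore also given without each of its libraries where the call changes. Levels are given as CPM, counts relative to the library total after TMM scaling, changes are log2 fold changes with their standard error (SE), and a gene is called when its p, adjusted over all tested genes, is under 0.05.

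RUNX2 is the transcription factor that commits mesenchymal cells to the osteoblast lineage, and SP7 (osterix) acts downstream of it. DLX5 and MSX2 are homeodomain factors that act in skeletal and craniofacial bone, and TWIST1 restrains RUNX2 in early osteoblast precursors. Osteoblasts then secrete type I collagen, normally assembled from both COL1A1 and COL1A2 chains, bind mineral through SPARC (osteonectin) and SPP1 (osteopontin), and release phosphate for mineral with ALPL.

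Promoter windows from RefSeq, running from 250 bases before to 50 bases after an annotated transcript start on GRCh38.p14, were found for 5 of the 10 genes, in 8 windows. The windows of RUNX2, ALPL and SPP1 are shown because RUNX2 and ALPL were the members that moved most between media and because the RUNX core motif ACCACA, which the RUNX2 protein binds, occurs in windows of RUNX2 and SPP1. Capitals mark ACCACA, the AP-1 motif TGANTCA and the GC box GGGCGG, searched on both strands with no overlap between motifs in these windows.
RUNX2 window 1, chr6:45328080-45328379, plus strand: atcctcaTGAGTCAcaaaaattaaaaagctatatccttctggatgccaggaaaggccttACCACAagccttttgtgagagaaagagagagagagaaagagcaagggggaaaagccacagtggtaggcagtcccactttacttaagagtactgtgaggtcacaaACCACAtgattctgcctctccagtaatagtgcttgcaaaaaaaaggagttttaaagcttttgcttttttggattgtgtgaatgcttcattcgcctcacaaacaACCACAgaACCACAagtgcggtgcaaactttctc
RUNX2 window 2, chr6:45422025-45422324, plus strand: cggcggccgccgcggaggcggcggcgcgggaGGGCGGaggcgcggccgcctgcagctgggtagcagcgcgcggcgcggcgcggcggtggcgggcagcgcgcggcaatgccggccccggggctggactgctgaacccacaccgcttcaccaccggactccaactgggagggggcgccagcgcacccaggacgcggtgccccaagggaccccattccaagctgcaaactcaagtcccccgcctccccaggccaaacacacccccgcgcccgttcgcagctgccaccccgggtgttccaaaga
SPP1, chr4:87975464-87975763, plus strand: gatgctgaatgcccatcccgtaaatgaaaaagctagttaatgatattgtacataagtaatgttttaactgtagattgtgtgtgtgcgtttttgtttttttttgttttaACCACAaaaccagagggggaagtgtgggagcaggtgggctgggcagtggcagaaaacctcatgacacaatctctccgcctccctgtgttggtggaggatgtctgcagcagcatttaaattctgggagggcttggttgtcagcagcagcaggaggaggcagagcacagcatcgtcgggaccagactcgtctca
ALPL window 2, chr1:21509173-21509472, plus strand: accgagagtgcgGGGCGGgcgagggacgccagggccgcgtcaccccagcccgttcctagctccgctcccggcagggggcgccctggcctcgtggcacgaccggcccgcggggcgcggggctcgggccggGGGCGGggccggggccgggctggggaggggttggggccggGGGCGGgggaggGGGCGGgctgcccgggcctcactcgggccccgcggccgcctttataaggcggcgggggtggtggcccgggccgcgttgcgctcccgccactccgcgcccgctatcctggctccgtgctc

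RUNX2 window 1 held 4 RUNX cores and 1 AP-1 motif and was 42.7% G and C, whereas RUNX2 window 2 held 1 GC box, neither of the other motifs, and was 76% G and C. The SPP1 window held 1 RUNX core, 142 bases before the start. ALPL window 2 held 4 GC boxes at 82.3% G and C, while its windows 1 and 3 and the windows of MSX2 and SPARC held none of the 3 motifs. Of 35116 promoter windows of this length, 13.1% held a RUNX core and 0.0142% held 4 or more, 7.71% held an AP-1 motif, and 45.0% held a GC box and 9.06% held 4 or more. These are matches of letters and not measured sites.

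Only some of the bone programme was present as RNA. Divided by gene length, COL1A1 averaged 1445 CPM per kb over the 10 libraries, the 23rd highest of the 25807 symbols, and SPARC averaged 567 CPM per kb, the 88th. ALPL followed at 16.8, MSX2 at 6.09, RUNX2 at 5.63 and SPP1 at 1.75 CPM per kb. COL1A2 averaged 0.140 CPM per kb and DLX5 0.118, SP7 averaged 0.0173, and TWIST1 had 0 counts in all 10 libraries, which allows up to 0.0156 CPM at 3 counts over all libraries. Between neighbours in this order, the library ranges of MSX2 (4.61 to 7.12 CPM per kb) and RUNX2 (1.81 to 9.68) overlapped, as did those of RUNX2 and SPP1 (1.03 to 3.43) and those of COL1A2 (0.0760 to 0.234) and DLX5 (0.0692 to 0.238). COL1A1 alone took 0.857% of all RNA counts and SPARC 0.204%.

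**Figure D1:**
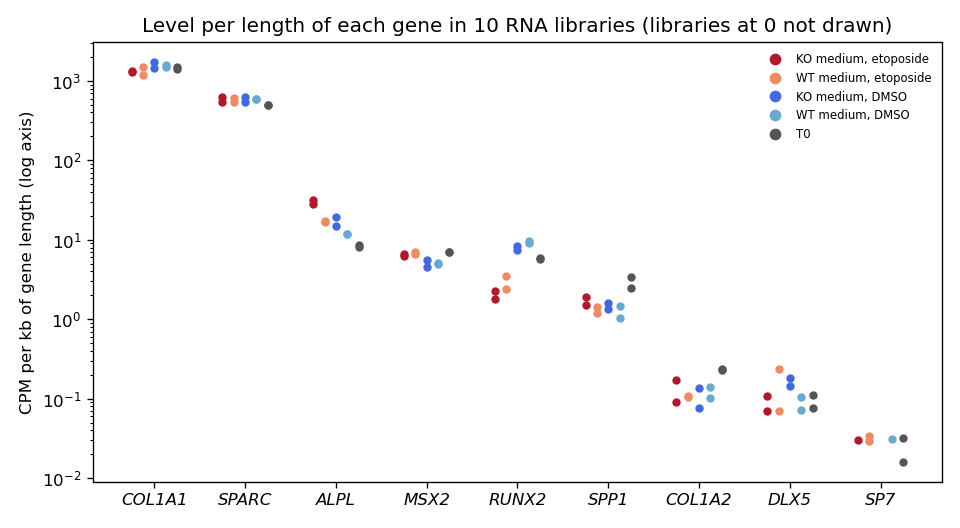
Level of each gene per length (CPM per kb of gene length, log axis) in the 10 RNA libraries, coloured by group; libraries at 0 are not drawn and TWIST1, at 0 in all, is left out. COL1A1 sat between 1186 and 1710 CPM per kb and COL1A2 between 0.0760 and 0.234.

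The chains of type I collagen were far apart. Per length, COL1A1 exceeded COL1A2 in every library, by 6019-fold to 19086-fold with a median of 11960-fold, and COL1A2 rested on 8 to 24 counts a library. Of the 10 genes, 6 averaged at least 1 CPM, namely RUNX2, ALPL, COL1A1, SPP1, SPARC and MSX2. The late osteoblast markers BGLAP (osteocalcin), with 0 to 6 counts a library, and IBSP (bone sialoprotein), with 0 to 2, were close to absent. So were the transcription factors SP7, with 0 to 2 counts, and DLX5, with 2 to 6. Of the members, COL1A1, SPARC, RUNX2, ALPL, MSX2 and SPP1 were thus present as RNA. COL1A2 was low, SP7 and DLX5 were close to absent and TWIST1 was not detected. No other cell type was measured, so whether these levels mark the bone lineage was not tested.

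RNA of other lineages was also listed. Summed over 8 chondrocyte markers, the libraries had 364 to 370 CPM in KO etoposide medium, 202 to 209 in WT etoposide medium, 172 to 223 in KO DMSO medium, 145 to 162 in WT DMSO medium and 219 to 224 at T0. Most of it was SOX9, a cartilage transcription factor that averaged 189 CPM, while the cartilage collagen COL2A1 had 0 to 3 counts and COL9A1 0 or 1. Adipocyte, muscle and epithelial markers summed to at most 30.6, 5.86 and 17.4 CPM in any library, and the highest of 6 blood markers, PTPRC, averaged 0.666 CPM. The chondrocyte sum was highest in the medium in which ALPL was highest, and its part in the results was not tested.

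Etoposide-conditioned medium moved a few members in opposite directions. In both KO and WT etoposide medium RUNX2 fell while ALPL and MSX2 rose relative to DMSO medium of the same donor, and in KO medium COL1A1 also fell. The 7 members that passed the filter on low counts were tested, and 4 were called between KO etoposide and KO DMSO medium and 3 between WT etoposide and WT DMSO medium. Over all 15391 tested genes, 37.2% and 34.6% were called in these comparisons, so the members' shares were not far from that background. The median log2 change of the 7 members was 0.21 in KO medium and −0.04 in WT medium, against −0.01 and 0.01 over all genes.

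RUNX2 had 13.2 and 10.5 CPM in libraries A and B of KO etoposide medium, against 48.6 and 42.5 CPM in KO DMSO medium. In WT etoposide medium it had 20.3 and 13.8 CPM, against 55.8 and 52.98 CPM in WT DMSO medium, and at T0 it had 33.3 and 34.0 CPM. All 4 etoposide-medium libraries were below both T0 libraries, and all 4 DMSO-medium libraries were above them, with no overlap. The log2 change with etoposide was −1.94 ± 0.14 in KO medium (3.85-fold lower, adjusted p = 2.69e-09) and −1.66 ± 0.13 in WT medium (3.17-fold lower, adjusted p = 1.35e-08). In none of the 15 alternative settings did either RUNX2 change lose its call.

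ALPL had 73.7 and 81.6 CPM in KO etoposide medium, against 38.4 and 50.5 CPM in KO DMSO medium. In WT etoposide medium it had 44.6 and 43.2 CPM, against 30.7 in both libraries of WT DMSO medium, and at T0 it had 20.8 and 22.3 CPM. Both etoposide media were above the DMSO medium of the same donor in every library, and T0 was the lowest group. The log2 change with etoposide was 0.80 ± 0.10 in KO medium (1.75-fold, adjusted p = 4.83e-06) and 0.52 ± 0.11 in WT medium (1.43-fold, adjusted p = 0.00102). The KO change was 1.02 without library B of KO DMSO medium and 0.60 without library A, and was called both times.

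MSX2 had 13.7 and 14.8 CPM in KO etoposide medium, against 12.2 and 10.2 CPM in KO DMSO medium. In WT etoposide medium it had 14.8 and 15.4 CPM, against 11.3 and 10.9 CPM in WT DMSO medium, and at T0 it had 15.7 and 15.4 CPM. The etoposide-medium libraries lay above those of DMSO medium and near T0. The log2 change was 0.35 ± 0.12 in KO medium (adjusted p = 0.0273) and 0.45 ± 0.12 in WT medium (adjusted p = 0.00656). The KO call was lost in 5 of 15 alternative settings, with adjusted p up to 0.202 without library B of KO DMSO medium, and the WT call in 1, with adjusted p = 0.0552 without library B of WT DMSO medium.

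**Figure D2:**
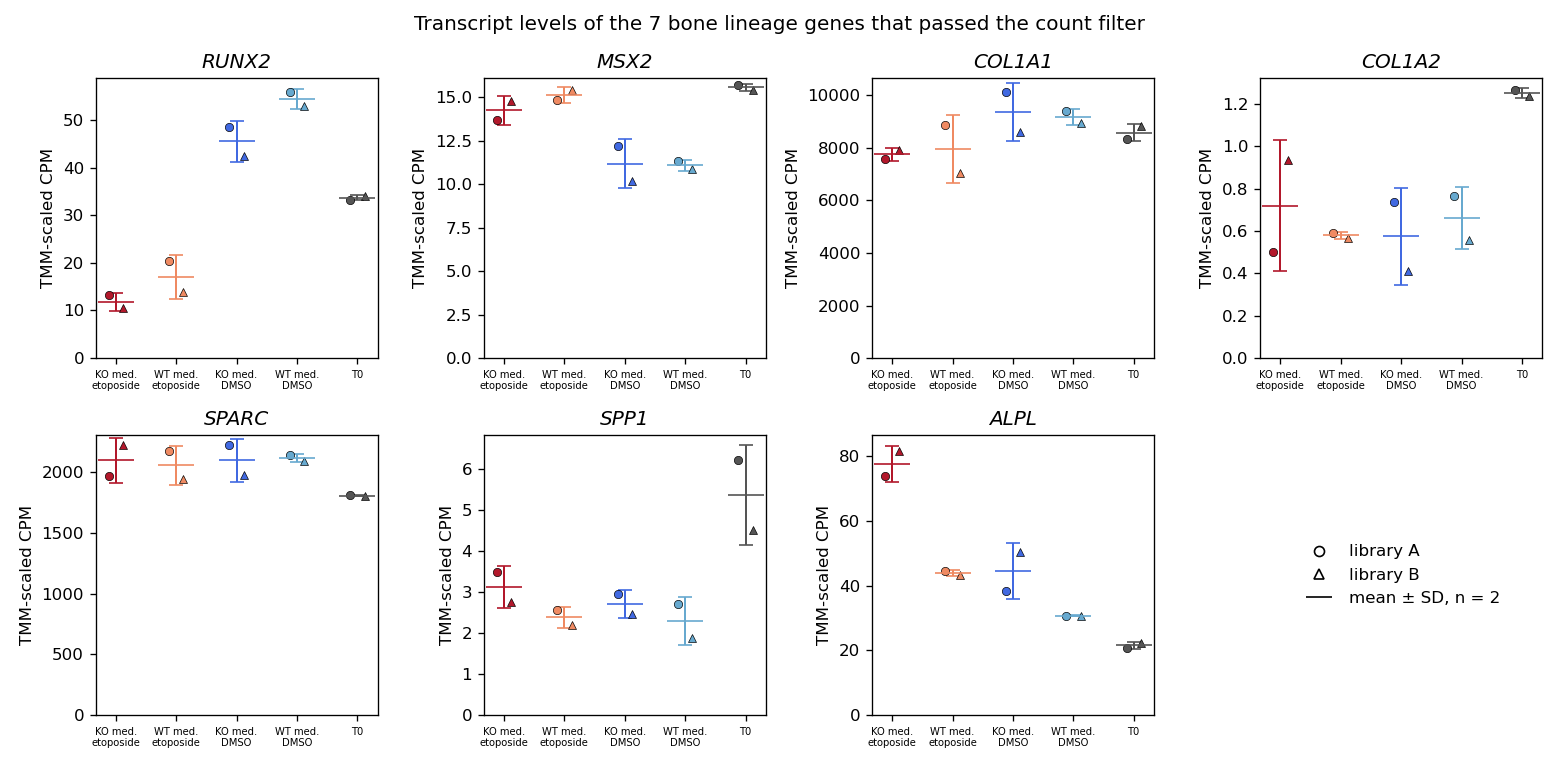
TMM-scaled CPM of the 7 members that passed the count filter (y axes from 0), by group, with library A as a circle, library B as a triangle, and the mean ± SD (n = 2) as bars. RUNX2 was lowest and ALPL highest in KO etoposide medium, while COL1A1 ran from 7030 to 10135 CPM and SPARC from 1805 to 2226 CPM over the libraries.

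COL1A1 had 7585 and 7917 CPM in KO etoposide medium, against 10135 and 8598 CPM in KO DMSO medium. It had 8863 and 7030 CPM in WT etoposide medium, against 9398 and 8958 CPM in WT DMSO medium, and 8351 and 8814 CPM at T0. In both donors the etoposide-medium libraries were below the DMSO-medium libraries, although library A of WT etoposide medium came close to library B of WT DMSO medium. The log2 change was −0.27 ± 0.10 in KO medium (adjusted p = 0.0306), which 4 of 15 alternative settings did not call, and −0.21 ± 0.10 in WT medium (adjusted p = 0.101), which 5 of 15 did call. Without library A of KO DMSO medium the KO change was −0.17 (adjusted p = 0.0969), and the WT change was −0.38 (adjusted p = 0.00936) without library A of WT etoposide medium and −0.05 (adjusted p = 0.763) without library B.

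The remaining members tested, COL1A2, SPARC and SPP1, were not called in either comparison of etoposide with DMSO medium. SPARC had 1968 and 2226 CPM in KO etoposide medium, against 2222 and 1974 CPM in KO DMSO medium, and 2171 and 1942 CPM in WT etoposide medium, against 2138 and 2094 CPM in WT DMSO medium. SPP1 had 3.49 and 2.76 CPM in KO etoposide medium, against 2.94 and 2.47 CPM in KO DMSO medium, and 2.56 and 2.21 CPM in WT etoposide medium, against 2.70 and 1.87 CPM in WT DMSO medium. The libraries of the compared groups overlapped for both genes. COL1A2 rested on 8 to 18 counts in each of the 8 conditioned-medium libraries, with standard errors of 0.45 and 0.46 on the log2 changes with etoposide in KO and WT medium.

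The p53 status of the donors also went with ALPL and RUNX2. Between KO and WT etoposide medium, ALPL rose by 0.82 ± 0.10 on the log2 scale (1.77-fold, adjusted p = 4.73e-05) and RUNX2 fell by 0.54 ± 0.15 (1.45-fold lower, adjusted p = 0.0234), so that 2 of 7 members were called where 14.1% of all tested genes were. The RUNX2 libraries did not overlap, but the gap between library A of KO etoposide medium and library B of WT etoposide medium was only that between 13.2 and 13.8 CPM. The RUNX2 call was lost without library A of WT etoposide medium (−0.22, adjusted p = 0.416) and without library B of KO etoposide medium (−0.38, adjusted p = 0.225), while the ALPL call held in every one of the 15 alternatives. The authors' deposited table of KO over WT medium lists log2 fold changes of 0.82 for ALPL (adjusted p = 3.39e-09) and −0.54 for RUNX2 (adjusted p = 0.0118). That table does not name the media's treatment, and over its 13638 genes its values differed from the etoposide-media comparison made here by a median of 0.00314 and from the DMSO-media comparison by 0.184.

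Between KO and WT DMSO medium, ALPL was the 1 member called of 7, where 1.56% of all tested genes were. It rose by 0.53 ± 0.11 (1.45-fold, adjusted p = 0.0270), and both KO libraries were above both WT libraries. This call depended on the libraries in the fit: the value was 0.33 (adjusted p = 0.236) without library B of KO DMSO medium and 0.75 (adjusted p = 2.80e-07) without library A, and 10 of 15 alternative settings did not call it. RUNX2 was −0.26 ± 0.12 in this comparison (adjusted p = 0.248).

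Whether the effect of etoposide on the medium differed between KO and WT donors was tested as the difference between their log2 changes. No member was called (0 of 7 by edgeR and 0 of 7 by DESeq2), where 2.12% of all tested genes were by edgeR. At an unadjusted p under 0.05 by edgeR there were 0 of 7 members, beside 2918 of all 15391 tested genes. The difference was 0.29 ± 0.15 for ALPL (adjusted p = 0.303) and −0.28 ± 0.19 for RUNX2 (adjusted p = 0.463). The ALPL difference was 0.50 without library B of KO DMSO medium and 0.08 without library A. Whether ALPL was called therefore depended on which libraries of KO DMSO medium were in the fit. These 4 comparisons and this difference share libraries and are not independent of each other.

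**Figure D3:**
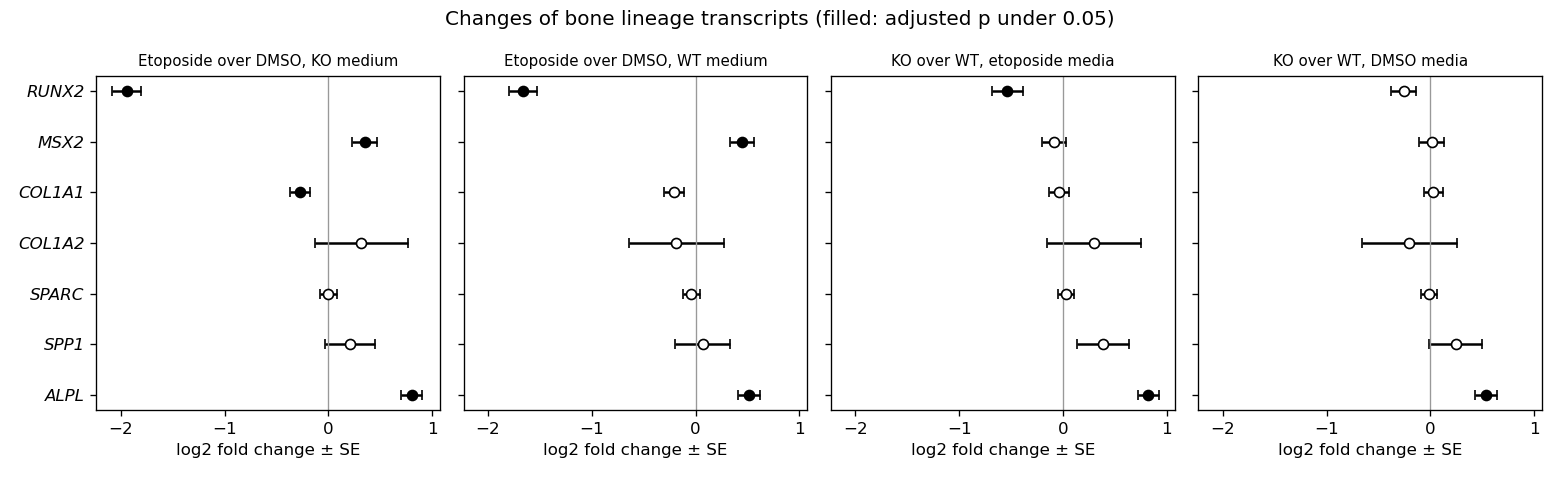
Log2 fold changes ± SE of the 7 tested members (x axis) in 4 comparisons of conditioned media; filled points have an adjusted p under 0.05. RUNX2 lies at −1.94 and −1.66 in the etoposide over DMSO panels and ALPL is right of 0 in all 4 panels.

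Compared with T0, conditioned medium of any kind went with higher ALPL and lower SPP1. T0 was at 0 h and all conditioned media at 8 h, with no 8 h group in unconditioned medium. Effects of the medium and of 8 h of culture therefore cannot be told apart. The 4 comparisons share the T0 libraries, and 46.6% (KO etoposide medium), 41% (WT etoposide medium), 36.8% (KO DMSO medium) and 35.4% (WT DMSO medium) of all tested genes were called. Of the 7 members, 4, 4, 6 and 5 were called in the same order of media. ALPL rose by 1.85 ± 0.11 in KO etoposide, 1.02 ± 0.11 in WT etoposide, 1.04 ± 0.11 in KO DMSO and 0.51 ± 0.11 in WT DMSO medium, with adjusted p between 1.83e-10 and 0.00183. RUNX2 took opposite directions, lower by 1.51 ± 0.14 and 0.97 ± 0.14 in KO and WT etoposide medium and higher by 0.44 ± 0.13 and 0.69 ± 0.12 in KO and WT DMSO medium. The rise in KO DMSO medium (adjusted p = 0.0103) was not called when either T0 library was left out.

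SPP1 had 6.23 and 4.51 CPM at T0, above each of the 8 conditioned-medium libraries, whose highest value was 3.49 CPM. It fell in all 4 media, with log2 changes of −0.78 ± 0.22 in KO etoposide, −1.17 ± 0.23 in WT etoposide, −0.99 ± 0.23 in KO DMSO and −1.23 ± 0.23 in WT DMSO medium and adjusted p from 0.000394 to 0.00707. The SPP1 call in KO etoposide medium was lost without T0 library A (−0.53, adjusted p = 0.145) and without library B of KO etoposide medium (−0.61, adjusted p = 0.0889), and that in KO DMSO medium without T0 library A (−0.73, adjusted p = 0.0615). MSX2 fell by 0.48 ± 0.12 in KO and 0.49 ± 0.12 in WT DMSO medium (adjusted p = 0.00391 and 0.00325). SPARC had 1810 and 1805 CPM at T0 below all 8 conditioned-medium libraries, and rose by 0.21 ± 0.08 in KO etoposide (adjusted p = 0.0350), 0.22 ± 0.08 in KO DMSO (adjusted p = 0.0424) and 0.23 ± 0.08 in WT DMSO medium (adjusted p = 0.0335). Each of these SPARC calls was lost when either T0 library was left out, with adjusted p between 0.131 and 0.166. The call in KO etoposide medium was also lost without library B of that medium (0.13, adjusted p = 0.286), and that in KO DMSO medium without library A of that medium (0.15, adjusted p = 0.119). Either library of WT DMSO medium, when left out, ended the calls in both DMSO media.

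COL1A2 had 24 and 23 counts at T0 (1.27 and 1.24 CPM), above all 8 conditioned-medium libraries. It fell by 1.10 ± 0.41 in WT etoposide (adjusted p = 0.0366) and 1.12 ± 0.41 in KO DMSO medium (adjusted p = 0.0374), and was at −0.80 ± 0.39 in KO etoposide (adjusted p = 0.0968) and −0.92 ± 0.39 in WT DMSO medium (adjusted p = 0.0778). The call was lost in 5 of 15 alternative settings in WT etoposide medium, with adjusted p up to 0.152, and in 6 of 15 in KO DMSO medium, where it was −0.76 (adjusted p = 0.240) without library B of KO DMSO medium. COL1A1 was not called against T0 in any medium.

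Other genes of the lineage were taken from 5 lists, chosen with earlier results of these data known. The lists overlap, so their counts are not of separate genes. BMP2 is in the osteoblast lineage list and the list of BMP and Wnt inputs, and TNFRSF11B is in the osteoblast lineage and mineralization lists. Of 17 tested genes of the osteoblast lineage beyond the members, 5 rose and 2 fell with etoposide in KO medium and 4 rose and 2 fell in WT medium, shares near the 37.2% and 34.6% of all tested genes called. Between KO and WT etoposide medium 8 rose and 1 fell, where 14.1% of all tested genes were called. RUNX3, a relative of RUNX2, had 70.7 and 64.7 CPM in KO etoposide medium, against 23.9 and 33.3 CPM in KO DMSO medium, and 41.3 and 37.6 CPM in WT etoposide medium, against 21.6 and 22.6 CPM in WT DMSO medium. It thus rose where RUNX2 fell, with log2 changes of 1.24 ± 0.11 (KO) and 0.84 ± 0.12 (WT). BMP2, a bone morphogenetic protein that drives osteoblast differentiation, rose by 1.57 ± 0.17 and 1.36 ± 0.18, and TNFRSF11B, the decoy receptor osteoprotegerin, by 1.38 ± 0.21 and 1.51 ± 0.24.

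The medians of the osteoblast lineage list were 0.14 in KO and −0.01 in WT medium, against −0.01 and 0.01 over all genes. Of 22 tested genes for BMP and Wnt inputs, 9 rose and 7 fell in KO medium and 3 rose and 7 fell in WT medium, beside 37.2% and 34.6% of all tested genes, with medians of −0.13 and −0.14. BMP4, a second bone morphogenetic protein, moved against BMP2. It had 36.5 and 49.1 CPM in KO etoposide medium, against 146 and 117 CPM in KO DMSO medium, and 62.0 and 55.2 CPM in WT etoposide medium, against 163 and 158 CPM in WT DMSO medium, a log2 change of −1.62 ± 0.12 in KO and −1.45 ± 0.12 in WT medium. BMPR2, a receptor for these ligands, fell by 0.39 ± 0.07 and 0.64 ± 0.07.

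Genes that make, process and cross-link collagen I changed about as often up as down. Of 28 tested, 4 rose and 5 fell in KO medium and 6 rose and 7 fell in WT medium, beside 37.2% and 34.6% of all tested genes, with medians of 0.02 and 0.05. CREB3L1, a transcription factor that activates COL1A1 in mouse osteoblasts, had 85.7 and 82.0 CPM in KO etoposide medium, against 173 and 116 CPM in KO DMSO medium, and 74.3 and 65.5 CPM in WT etoposide medium, against 150 and 164 CPM in WT DMSO medium. Its log2 change was −0.79 ± 0.12 in KO and −1.17 ± 0.12 in WT medium. SERPINH1, the collagen chaperone HSP47, fell by 0.43 ± 0.07 and 0.29 ± 0.07. SEC24D, a coat protein used for export of procollagen, rose by 0.60 ± 0.08 in KO medium and fell by 0.24 ± 0.08 in WT medium.

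Of 17 other fibrillar and bone matrix genes, 3 rose and 3 fell in KO medium and 2 rose and 3 fell in WT medium, shares near or below the 37.2% and 34.6% of all tested genes, with medians of 0.18 and −0.05. COL5A2, a chain of the type V collagen that co-assembles with type I, fell by 0.57 ± 0.10 and 0.70 ± 0.09. Of 7 tested genes of mineralization, 3 rose and 1 fell in each medium, beside the same 37.2% and 34.6%, with medians of 0.31 and 0.24. SLC20A1, a phosphate transporter, had 423 and 394 CPM in KO etoposide medium, against 123 and 189 CPM in KO DMSO medium, and 193 and 195 CPM in WT etoposide medium, against 113 and 105 CPM in WT DMSO medium. The log2 change of SLC20A1 was 1.39 ± 0.12 in KO and 0.83 ± 0.12 in WT medium, and 1.07 ± 0.12 between KO and WT etoposide medium.

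Of 6 tested chondrocyte markers, 3 rose and 1 fell with etoposide in KO medium and 2 rose and 1 fell in WT medium. In these comparisons 37.2% and 34.6% of all tested genes were called. The medians of the markers were 0.33 and 0.02, against −0.01 and 0.01 over all genes. SOX5, which acts with SOX9 in cartilage, fell by 1.06 ± 0.31 in KO medium and 1.12 ± 0.30 in WT medium. SOX9 rose by 0.99 ± 0.10 with etoposide in KO medium and 0.51 ± 0.10 in WT medium, and by 0.97 ± 0.10 between KO and WT etoposide medium (8.17e-06 adjusted p). SOX9, SLC20A1, RUNX3 and ALPL were each highest among conditioned media in KO etoposide medium. In each of these 4 genes library B of KO DMSO medium was higher than library A.

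The genes whose levels were most like a member's over the 10 libraries, by Pearson's r of log2 CPM among 13693 genes, are given as a description. For RUNX2 they were NFIB (r = 0.99), IQCE (0.99) and CIT (0.99), and for ALPL they were OGFOD1 (0.99), DESI1 (0.98) and SNCB (0.98). MSX2 was most like OCIAD1 (0.98), CD70 (0.97) and MGST2 (0.97), and COL1A1 most like LBHD1 (0.93), TBC1D32 (0.93) and DDX11 (0.93). For SPARC they were ALPP (0.96), CNOT10 (0.96) and LOC90834 (0.95), for SPP1 MMP17 (0.96), ARHGDIB (0.94) and CTSB (0.93), and for COL1A2 CMC2 (0.95), MIEN1 (0.94) and NAGLU (0.93). The libraries fall into 5 groups, so these values mainly compare group means, and among the members RUNX2 and COL1A1 had r = 0.81 and RUNX2 and ALPL r = −0.68.

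The screen asked whether cells that lose one of these genes become rarer or more frequent in the pool. Each gene had 6 guides, and a guide had 72 to 1318 counts in a library, with a median of 311. No member was called in any of 7 comparisons by edgeR on counts summed over guides, and adjusted p ran from 0.0825 to 0.995 over the 70 tests. An unadjusted p was under 0.05 in 5 of them. Over all 19050 genes it was under 0.05 for 1468 to 3788 genes in each of the 7 comparisons. Log2 changes lay between −0.14 and 0.14, and the standard errors of the 5 direct comparisons were 0.04 to 0.06.

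After 96 h in DMSO against T0, the members lay between −0.08 (ALPL) and 0.05 (RUNX2) in KO cells and between −0.08 (SP7) and 0.13 (COL1A1) in WT cells, where 3.42% and 6.55% of all 19050 genes were called. The summed guides of COL1A1 had 60.5, 54.3 and 60.6 CPM in libraries A, B and C of WT cells in DMSO, against 53.3, 51.6 and 55.2 CPM at T0. Library B in DMSO lay below library C at T0, so the groups overlapped (log2 change 0.13 ± 0.05, adjusted p = 0.109). In WT cells COL1A1 and SP7 were each called in 1 of 24 alternative settings of this comparison. Guides against RUNX2 averaged 63.1 ± 1.67 CPM in KO cells in DMSO and 60.8 ± 2.61 at T0, and 66.3 ± 4.21 CPM in WT cells in DMSO and 64.1 ± 1.92 at T0 (SD, n = 3 each). The log2 change was 0.05 ± 0.05 in both, with a 95% interval of −0.04 to 0.15 in KO cells and −0.05 to 0.15 in WT cells.

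Etoposide against DMSO at 96 h gave members between −0.06 (RUNX2) and 0.14 (MSX2) in KO cells and between −0.11 (TWIST1) and 0.06 (SPP1) in WT cells, where 4.23% and 2.18% of all genes were called. Guides against MSX2 had 57.1, 55.9 and 51.4 CPM in KO cells in etoposide, against 50.7, 48.2 and 50.8 CPM in DMSO. All 3 etoposide libraries were higher, with a log2 change of 0.14 ± 0.05 that did not pass the threshold (adjusted p = 0.126 by edgeR). Guides against TWIST1, whose transcript was at 0 counts, had 52.8, 50.6 and 45.5 CPM in WT cells in etoposide, against 56.6, 53.1 and 51.1 CPM in DMSO (log2 change −0.11 ± 0.06, adjusted p = 0.399).

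Between the KO and WT pools at T0 the members lay between −0.08 (COL1A2) and 0.12 (SPARC), where 4.54% of all genes were called. Guides against SPARC had 89.5, 87.6 and 87.6 CPM in KO cells, against 80.9, 81.1 and 81.2 CPM in WT cells, with no overlap. The log2 difference of 0.12 ± 0.04 had an adjusted p of 0.0825 by edgeR, and it was called by DESeq2 (adjusted p = 0.0360), in the fit of the T0 libraries alone and with scaling to the non-targeting guides (0.17, adjusted p = 0.00622). This comparison is of pools before treatment. In the tests of whether growth or the etoposide effect differed between KO and WT cells, 0 of 10 members were called, where 0.00525% and 0.0525% of all genes were.

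**Figure D4:**
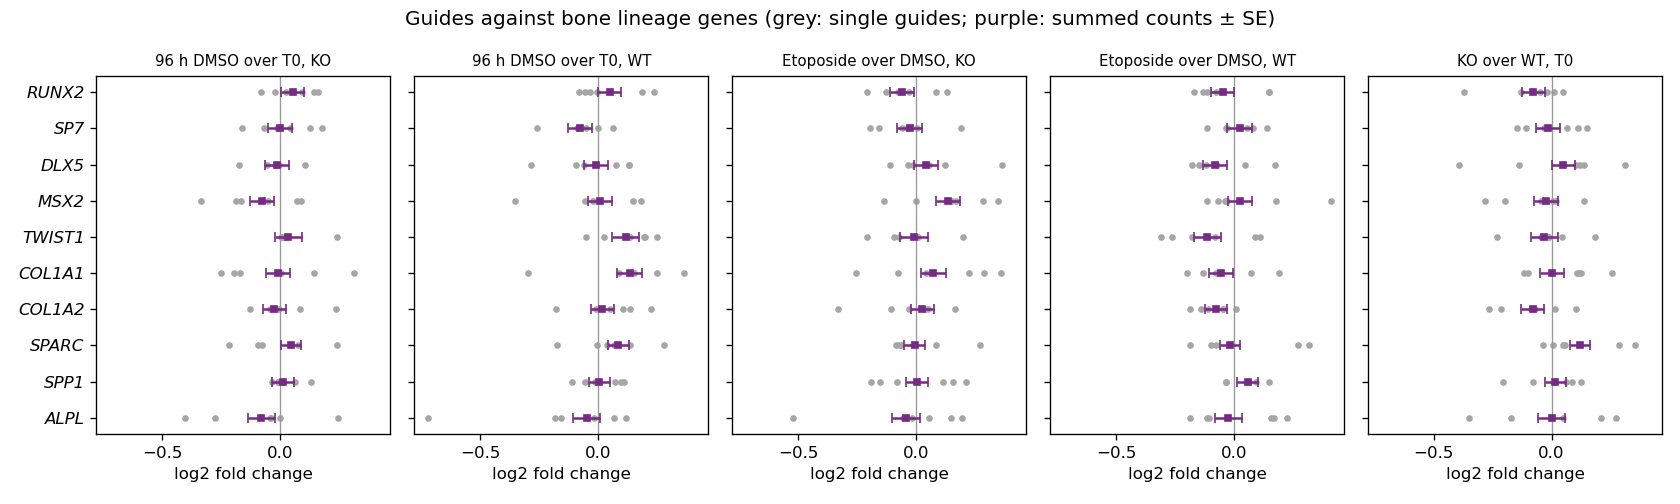
Log2 fold changes of guides against the 10 members (x axis) in 5 screen comparisons, with single guides in grey and the counts summed over 6 guides in purple with their SE. The purple points lie between −0.11 and 0.14 and the guides of each gene spread on both sides of them.

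Guides against the same gene share a target and are not replicates of a condition. Over the 60 member guides, 1 was called, a guide against SPARC (HGLibA_46416) that was higher in the KO pool at T0, where 2.67% of all guides were called. None was called after DMSO against T0, where 0.609% of all guides were in KO and 1.54% in WT cells, or with etoposide against DMSO, where 0.841% were in KO and 0.372% in WT cells. None was called in the tests of a difference between KO and WT cells, where 0.00274% were for etoposide and 0.000914% for growth. At an unadjusted p under 0.05 there were 3 to 7 of the 60 member guides in each of the 7 comparisons, beside 7828 to 20081 of all 109367 guides. It had 19.8, 22.9 and 20.8 CPM in KO cells, against 17.3, 16.0 and 16.6 CPM in WT cells (log2 difference 0.35, adjusted p = 0.0182). The call was lost without library B or C of WT T0 or library B of KO T0, with adjusted p up to 0.124. In the 5 direct comparisons the largest change of a member guide was that of a guide against ALPL (HGLibA_01710) in WT cells, with 1.86, 2.98 and 2.87 CPM after 96 h in DMSO, against 3.65, 4.50 and 4.48 CPM at T0 (log2 change −0.72, adjusted p = 0.0513). The other 5 guides against ALPL lay between −0.18 and 0.12 there, and in KO cells the same guide was at 0.00.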

How the data were processed

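RNA was counted per gene and guides were counted in genomic DNA. Both tables hold counts as deposited by the authors; Bowtie2, DESeq2 and hg19 are named in the submitters' processing notes, while no source used here gives the RNA aligner, annotation, strand setting or guide library. The authors' deposited table gives log2 fold changes with standard errors, a test score, p-values with FDR and a mean normalized signal. Its comparison was identified from the values.

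After TMM scaling, edgeR's quasi-likelihood test (4.0.16, R 4.3.3) was run with Benjamini-Hochberg adjustment, all RNA groups in 1 fit (5 residual degrees of freedom) and all screen groups in another (12), guides summed per gene or taken singly. The RNA filter was filterByExpr with a minimum count of 10, which 15391 symbols passed. DESeq2 1.42.0 was an alternative. In 51 rows a symbol altered by spreadsheet software was restored. Members and lists were chosen with earlier results of these data known. Besides the members, the 3 called genes of each list with the smallest p in a comparison, and the 3 genes most like each tested member, could be named. On simulated data for WT etoposide against WT DMSO medium, with 15391 genes, 81% of 1.5-fold and 99% of 2-fold changes were recovered with 16 false calls. For WT etoposide against DMSO in the screen, with 19050 genes, 100% of both were, with 16 false calls. In both simulations only genes above a minimum mean count were given changes. The RNA rates therefore do not cover genes with as few counts as COL1A2. Floors of 3 counts cover counting error only. Standard errors from edgeR fits were derived from the log2 change and the F statistic, and hold the spread between libraries. The 95% intervals were made from them by a normal approximation, so an interval and its test can differ near the threshold. One marker gene is not reported here.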

Additional observations from a re-analysis of the deposited data

Results flagged for a closer look

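For 2 genes of the lists, the test of the difference itself called a difference between KO and WT donors in the response to etoposide medium. They were 1 of 28 tested collagen synthesis genes and 1 of 17 tested osteoblast lineage genes. In the other lists 0 of 17 matrix, 0 of 7 mineralization and 0 of 22 BMP and Wnt genes were called. Over all tested genes 2.12% were called, so these calls do not set the lists apart from that background. SEC24D, a coat protein for procollagen export, had 70.5 and 67.2 CPM in KO etoposide medium against 46.5 and 44.4 CPM in KO DMSO medium, and 41.9 and 44.0 CPM in WT etoposide medium against 52.0 and 49.7 CPM in WT DMSO medium. The difference between the log2 changes was 0.84 ± 0.11 (adjusted p = 0.00103 by edgeR). ZEB1, a repressor of epithelial genes placed in the osteoblast lineage list, had 47.2 and 48.5 CPM in KO etoposide medium against 44.6 and 41.6 CPM in KO DMSO medium, and 33.0 and 32.0 CPM in WT etoposide medium against 46.6 and 46.5 CPM in WT DMSO medium. The difference was 0.67 ± 0.11 (adjusted p = 0.00686), and it was not called without library B of WT etoposide medium (0.64, adjusted p = 0.0535). Neither gene is one of the 10 members.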

How the results depend on the processing

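Of 64 single-gene RNA results, 42 kept their direction and their side of the threshold under all 15 alternatives. In the fit of only the libraries compared, 2 members were called between KO etoposide and KO DMSO medium and 0 between KO and WT DMSO medium. Leaving out 1 library gave 2 to 4 members called for KO etoposide against KO DMSO medium, 1 to 2 for KO against WT etoposide medium, 0 to 1 for KO against WT DMSO medium, 0 to 1 for the difference between donors, 2 to 4 for KO etoposide medium against T0 and 2 to 6 for KO DMSO medium against T0. The RUNX2 difference between donors ran from −0.53 to 0.0319 and reversed without library A of WT etoposide medium; the cause was not tested. Over all genes, KO against WT DMSO medium gave 240 calls, against 0 to 3047 under the alternatives, the difference between donors 326 against 30 to 1654, and KO against WT etoposide medium 2166 against 776 to 3468. KO and WT DMSO medium against T0 gave 5668 and 5447 against as few as 3607 and 3618, and WT etoposide against WT DMSO medium 5326 against 3532 at the lowest. Among the lists, KO etoposide against KO DMSO medium gave 6 matrix genes against 1 to 8. WT etoposide against WT DMSO medium gave 13 collagen synthesis genes against 5 to 15, 5 matrix genes against 3 to 7 and 4 mineralization genes against 2 to 5. KO against WT etoposide medium gave 9 osteoblast lineage genes against 4 to 9, 8 BMP and Wnt genes against 3 to 9, 6 matrix genes against 0 to 8, 4 collagen synthesis genes against 1 to 6 and 3 mineralization genes against 1 to 4. Over all screen genes, the calls were 652 against 431 to 1586 (KO, DMSO against T0), 1247 against 853 to 3054 (WT, DMSO against T0), 805 against 504 to 942 (KO, etoposide against DMSO), 416 against 256 to 993 (WT, etoposide against DMSO) and 865 against 328 to 2116 (T0 pools). Over all guides, in the same order, they were 666 against 338 to 1209, 1683 against 973 to 3294, 920 against 511 to 1068, 407 against 191 to 744 and 2923 against 577 to 4015. In the screen, 1 member (SPARC) was called between T0 pools by DESeq2, in the fit of only the libraries compared and with scaling to the non-targeting guides. That scaling also called 1 member and 1 member guide in WT cells in DMSO against T0, and leaving out 1 library gave 0 to 1 of each there and 0 to 1 member guides between T0 pools. Correlations of same-letter deviations ran from −0.037 to 0.030 in RNA and from −0.047 to 0.172 in the screen, where 3 of 15 were over 0.1. These values do not settle whether the letters pair the libraries. With the letter as a replicate block, 5 members were called for KO DMSO medium against T0 in place of 6, and 1 member guide in WT cells in DMSO against T0 in place of 0. With 2 RNA libraries a group, COL1A2, DLX5, SP7 and TWIST1 are limited by depth.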

Other observations

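Genes of the mineral and bone lineage lists also differed between DMSO-conditioned medium and T0. SLC20A1, the phosphate transporter, had 123 and 189 CPM in KO DMSO medium and 113 and 105 CPM in WT DMSO medium, against 606 and 620 CPM at T0. The log2 change was −1.97 ± 0.12 in KO and −2.49 ± 0.13 in WT DMSO medium. RUNX3 had 51.8 and 49.4 CPM at T0 and changed by −0.82 ± 0.11 in KO and −1.20 ± 0.12 in WT DMSO medium, while RUNX2 was higher than at T0 in both. BMP2 had 3.94 and 5.09 CPM in KO DMSO medium and 3.77 and 3.49 CPM in WT DMSO medium, against 10.2 and 8.49 CPM at T0. BMPR2 was lower than T0 in all 4 media, by 1.40 ± 0.07 in KO etoposide, 1.53 ± 0.07 in WT etoposide, 1.01 ± 0.07 in KO DMSO and 0.89 ± 0.07 in WT DMSO medium on the log2 scale. These comparisons share the T0 libraries, and the media groups differ from T0 in time as well as in medium.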
